A study of Oryctolagus cuniculus with 15 samples.

Results

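The fibrillar collagens I, III, V and XI were followed here through the 7 genes that encode their chains in the deposited tables. These are COL1A1, COL1A2, COL3A1, COL5A1, COL5A2, COL5A3 and COL11A1, taken by gene symbol from the 23428 protein-coding genes of the rabbit annotation. Bulk RNA-seq had been done on first-passage corneal keratocytes from rabbits, grown for 6 days without serum, in 15 libraries that make up 5 conditions of 3. In the condition 2DC the cells grew on dishes coated with bovine type I collagen, and in 2DC_L they grew on the same dishes but were lysed directly, without the incubation in digestion medium that every other condition received. In 2DF they were plated on top of a polymerized matrix of the same collagen. In 3DF they were embedded inside that matrix at 100000 cells per matrix, and in 3DF_50 at 50000 cells per matrix. Each library came from dishes or matrices pooled within 1 experiment, and the 3 libraries of a condition came from separate experiments. Libraries of different conditions can share the prefix of their name, whose meaning is not stated. Replicates 1 of 2DC and 2DC_L share one, as do replicates 2 of 2DC and 2DC_L with replicate 1 of 3DF_50, replicate 3 of 2DC with replicate 1 of 3DF, replicate 3 of 2DC_L with replicate 2 of 3DF and replicate 3 of 3DF_50, and replicate 1 of 2DF with replicate 2 of 3DF_50.

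Fibrillar collagens are secreted as procollagens, trimmed outside the cell and packed into the long fibrils that give connective tissue its strength. In the corneal stroma, type I collagen makes up most of each fibril, and type V collagen, which is unusually plentiful in cornea, is built into the same fibrils, where it starts their assembly and keeps them thin and uniform. Type XI collagen is the close relative of type V that does the same in cartilage, and type III collagen is scarce in healthy stroma and accumulates in healing tissue. Keratocytes are the resident cells of the stroma that deposit and maintain this matrix.

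All 7 genes had counts in every library. In the oryCun2 genome, COL1A1 lies on chromosome 19 (37474894 to 37490691, plus strand), COL1A2 on chromosome 10 (34497959 to 34533742, minus strand) and COL11A1 on chromosome 13 (61054050 to 61262804, plus strand). COL3A1 (129298041 to 129341606, plus strand) and COL5A2 (129358210 to 129503927, minus strand) are neighbours on chromosome 7, with their 3′ ends facing each other across 16603 bases that hold 0 other genes of the table. COL5A3 lies on the unplaced scaffold Un0135 (271760 to 310395, plus strand) and COL5A1 on the unplaced scaffold Un0964 (28521 to 48879, minus strand). The exons of the COL5A1 model add up to only 3070 bases, against 4711 to 7441 bases for the other 6 genes. A further row, LOC100340124 on scaffold Un0640 (32420 to 91095, 741 exon bases), carries the same description, collagen alpha-1(V) chain, and is not counted among the 7. Values for COL5A1 are therefore those of 1 of at least 2 rows that the annotation assigns to this chain.

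Between 14626982 and 31804255 reads were counted per library. Levels are given in FPKM, which is counts per length of gene and per size of library, so that levels of different genes can be compared. Of 9 listed keratocyte markers, 7 were present in the table (KERA, LUM, DCN, OGN, ALDH1A1, TKT and CD34). Their levels go with the keratocyte label, since each was at 47.8 FPKM or more in every library. Their sum was 20151 to 43134 FPKM. The highest sum was in 3DF replicate 1, against 28488 and 28847 FPKM in the other 3DF libraries, and results that rest on 3DF are given without this library where it changed a call. Differences are log2 fold changes of the first condition against the second, from the quasi-likelihood test of edgeR with p adjusted over all genes tested, and a differentially expressed gene (DEG) has an adjusted p of at most 0.05 and a fold change of at least 1 on the log2 scale. In bulk RNA, less RNA per cell and fewer cells of a producing type cannot be told apart.

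Fibrillar collagen transcripts were highest on coated dishes, intermediate on top of the matrix and lowest inside it. In all 7 genes, each of the 6 libraries of 3DF and 3DF_50 lay below each of the 6 libraries of 2DC and 2DC_L, an arrangement found in 11.2% of the 14845 genes compared. The 6 3D libraries also lay below the 3 libraries of 2DF for COL1A1, COL3A1, COL5A2 and COL11A1, and 4.04% of genes showed this pattern of 3D below all 9 2D libraries. For COL1A1, COL1A2 and COL5A3 the 9 matrix libraries all lay below the 6 coated-dish libraries, as they did in 6.49% of genes. An F test over all 5 conditions gave an adjusted p between 8.72e-08 (COL11A1) and 0.000108 (COL5A1) for the 7 genes in edgeR, while 41.8% of the 14036 genes tested passed.

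**Figure D1:**
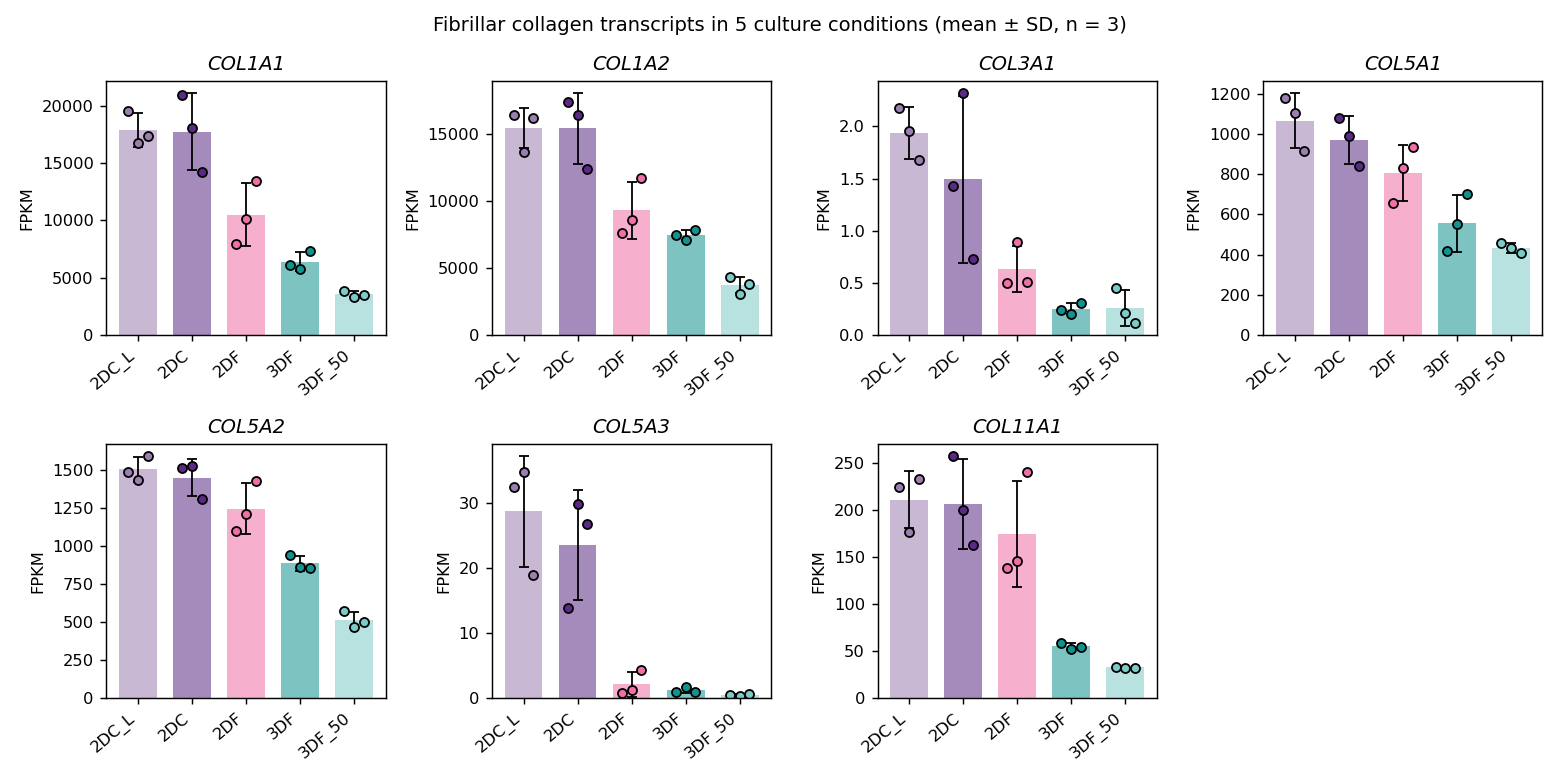
FPKM of the 7 genes (vertical axis, linear, from 0 and scaled separately for each gene) in the 5 conditions (horizontal axis); bars are means, error bars are SD and points are the 3 libraries. COL11A1 stays between 138 and 257 FPKM in all 2D libraries and between 31.7 and 58.2 FPKM in all 3D libraries, whereas COL5A3 is at 13.8 FPKM or more only on the coated dishes.

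The chains of type I collagen were among the most abundant transcripts of these cells. COL1A1, which encodes the alpha-1(I) chain, was at 19544, 16792 and 17361 FPKM in the libraries of 2DC_L and at 20929.8, 18084 and 14233 FPKM in those of 2DC. It was at 7937, 10095 and 13406 FPKM in 2DF, at 6092, 5733 and 7304 FPKM in 3DF, and at 3868, 3347 and 3481 FPKM in 3DF_50. Apart from the coated conditions, whose ranges overlapped, neighbours in this order did not overlap. By its mean, COL1A1 ranked 1 among all genes in 2DC_L, 2DC and 2DF, 8 in 3DF and 9 in 3DF_50.

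COL1A2, which encodes the alpha-2(I) chain of the same molecule, followed the same order. It was at 16400.0, 13669.9 and 16186 FPKM in 2DC_L and at 17353, 16426 and 12404 FPKM in 2DC. It was at 7583, 8588 and 11675 FPKM in 2DF, at 7472, 7048 and 7840 FPKM in 3DF, and at 4282, 3079 and 3797 FPKM in 3DF_50. The ranges of 2DF and 3DF overlapped, as did those of the coated conditions, so that 2DF and 3DF were not separated for this chain as they were for COL1A1. In every library the 7 genes together owed most of their FPKM to these chains, with condition means from 88.1% in 3DF_50 to 92.5% in 2DC.

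The main chains of type V collagen were less abundant and less variable. COL5A1, whose product is present in nearly all type V molecules, was at 1181, 1106 and 916 FPKM in 2DC_L and at 1079, 989 and 843 FPKM in 2DC. It was at 656, 829 and 936 FPKM in 2DF, at 417, 550.5 and 701 FPKM in 3DF, and at 456, 434 and 407 FPKM in 3DF_50. Each pair of neighbours in this order overlapped, and only conditions further apart were separated.

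COL5A2, which encodes the chain that pairs with alpha-1(V), was at 1487, 1431 and 1592 FPKM in 2DC_L and at 1511, 1527 and 1310.0 FPKM in 2DC. It was at 1097, 1209 and 1428 FPKM in 2DF, at 942, 857 and 854 FPKM in 3DF, and at 571, 465 and 496 FPKM in 3DF_50. Here the 2D conditions overlapped with their neighbours, and 3DF and 3DF_50 each stood apart below them. In COL5A1, the libraries of 3DF covered a wider range than those of COL5A2 (CV 25.5% against 5.63%), with 3DF replicate 1 lowest for COL5A1 and highest for COL5A2.

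COL5A3, which encodes a chain found in a minority of type V molecules, had the widest relative range of the 7. It was at 32.5, 34.8 and 18.9 FPKM in 2DC_L and at 13.8, 29.8 and 26.8 FPKM in 2DC. It was at 0.707, 1.21 and 4.21 FPKM in 2DF, at 0.898, 1.68 and 0.905 FPKM in 3DF, and at 0.360, 0.196 and 0.546 FPKM in 3DF_50. The step was thus between coated dishes and matrices, with 2DF and 3DF overlapping and 3DF_50 below both. The lowest of these values rest on 24 counts and the highest on 6496 counts.

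COL11A1, which encodes the alpha-1(XI) chain, stepped down at a different place. It was at 224, 176 and 233 FPKM in 2DC_L, at 257, 199.8 and 162 FPKM in 2DC, and at 138, 145 and 239 FPKM in 2DF. It was at 58.2, 51.6 and 53.6 FPKM in 3DF and at 32.7, 31.7 and 31.9 FPKM in 3DF_50. The 2D conditions overlapped, and both 3D conditions lay far below them and apart from each other, with little spread between their libraries (CV 6.20% in 3DF and 1.67% in 3DF_50).

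COL3A1, the only gene of type III collagen, was near the bottom of the detected range. It was at 2.18, 1.95 and 1.68 FPKM in 2DC_L, at 1.43, 2.32 and 0.725 FPKM in 2DC, and at 0.494, 0.887 and 0.508 FPKM in 2DF. It was at 0.243, 0.204 and 0.310 FPKM in 3DF and at 0.449, 0.209 and 0.112 FPKM in 3DF_50. The coated conditions were highest, 2DC overlapped with 2DF, and the 3D conditions overlapped with each other and lay below 2DF. These values rest on 12 to 341 counts per library, and within libraries COL3A1 was on average at 0.0108% of COL1A1 in 2DC_L and at 0.00393% in 3DF.

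The comparison 3DF vs. 2DC set cells inside a fibrillar matrix against cells on a coated dish. Dimensionality, structure and stiffness of the substrate and effective cell density changed together. All 7 genes were lower in 3DF, and their conditions did not overlap, which was the case for 18.7% of the 13493 genes tested. Of the 7, 5 were DEGs, against 7.56% of all genes as DEGs and 4.32% as lower DEGs. COL5A3 fell the most, 20.3-fold (log2 fold change -4.35, SE 0.37, edgeR adjusted p = 0.00027), followed by COL3A1, which fell 5.96-fold (log2 -2.57, SE 0.42, edgeR adjusted p = 0.00524), and COL11A1, which fell 3.81-fold (log2 -1.93, SE 0.18, edgeR adjusted p = 0.000389). COL1A1 fell 2.80-fold (log2 -1.49, SE 0.21, edgeR adjusted p = 0.00249), more than COL1A2, which fell 2.08-fold (log2 -1.06, SE 0.19, edgeR adjusted p = 0.00738). COL5A1 was 1.75-fold lower (log2 -0.81, SE 0.20, edgeR adjusted p = 0.0305) and COL5A2 1.65-fold lower (log2 -0.72, SE 0.14, edgeR adjusted p = 0.0105), and neither reached the limit on the fold change. Counted by adjusted p alone, all 7 were lower, as were 8.38% of genes.

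Some of these calls rested on single libraries. With the name prefix as a block, COL1A2 was at log2 -0.95 (edgeR adjusted p = 0.0139) and under the limit. Without 2DC replicate 1, COL1A2 was at log2 -0.96 (edgeR adjusted p = 0.0259) and no longer a DEG, and COL5A1 had an edgeR adjusted p of 0.0926. Without 2DC replicate 2, the adjusted p was 0.11 for COL5A1 and 0.0647 for COL5A2, and without 3DF replicate 2 it was 0.0724 for COL5A1. Without 3DF replicate 3, COL5A1 was at -1.01 (edgeR adjusted p = 0.0224) and became a DEG. COL1A1, COL3A1, COL5A3 and COL11A1 were DEGs whichever of the 6 libraries was left out.

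The comparison 2DF vs. 2DC kept the cells on a flat surface and changed the collagen beneath them from a coating to a fibrillar matrix. Stiffness of the substrate changed with it, which the paper names as a possible confounder. Structure and stiffness cannot be told apart here. In edgeR 1 of the 7 was a DEG, COL5A3. It fell 11.5-fold (log2 -3.52, SE 0.57, edgeR adjusted p = 0.00489), while 4.96% of the 13258 genes tested were DEGs and 2.93% were lower DEGs. COL1A1 (log2 -0.76, SE 0.25, edgeR adjusted p = 0.0762) and COL1A2 (log2 -0.72, SE 0.23, edgeR adjusted p = 0.0687) did not overlap between the conditions, a feature they shared with COL5A3 and with 18% of genes, yet did not pass. COL3A1 was at -1.24 (SE 0.41, edgeR adjusted p = 0.0781), and became a DEG without 2DC replicate 3 (-1.56, edgeR adjusted p = 0.0139). DESeq2 called both COL5A3 and COL3A1 (log2 -1.24, DESeq2 adjusted p = 0.0149). With the name prefix as a block, where 1 of the 3 libraries of 2DF shares a prefix with another condition, COL5A3 was at -3.89 and did not pass (edgeR adjusted p = 0.315). For the main type V chains and COL11A1 the differences were small against their error. COL5A1 was at -0.26 (95% interval -0.62 to 0.098), COL5A2 at -0.21 (-0.55 to 0.12) and COL11A1 at -0.24 (-0.77 to 0.30), with edgeR adjusted p from 0.308 to 0.541.

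The comparison 3DF vs. 2DF kept the same kind of matrix and moved the cells from its surface to its inside. Effective cell density changed as well, as the paper states that it was lower in 3D than in 2D. Position and density cannot be told apart in this comparison. In edgeR 1 of the 7 was a DEG, COL11A1. It fell 3.19-fold (log2 -1.67, SE 0.22, edgeR adjusted p = 0.00217), while 3.78% of the 13195 genes tested were DEGs and 1.69% were lower DEGs. COL3A1 was at -1.32 (SE 0.34, edgeR adjusted p = 0.0506), at the edge of the threshold, and DESeq2 called it along with COL11A1 (log2 -1.33, DESeq2 adjusted p = 0.00895). With the name prefix as a block COL11A1 was at -1.33 and did not pass (edgeR adjusted p = 0.288). COL1A1 (log2 -0.71, edgeR adjusted p = 0.15) and COL5A2 (log2 -0.49, edgeR adjusted p = 0.16) did not pass although, like COL3A1 and COL11A1, their libraries did not overlap, as in 14.3% of genes. COL1A2 (log2 -0.31, 95% interval -0.85 to 0.23), COL5A1 (-0.53, -1.02 to -0.043) and COL5A3 (-0.81, -2.04 to 0.42) had overlapping libraries and edgeR adjusted p from 0.195 to 0.481. For COL5A3 the sign turned without 2DF replicate 3, the highest of the matrix libraries, to a log2 difference of 0.28.

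These 3 comparisons share libraries, so their values are set side by side and not tested against each other. COL5A3 had -3.52 in 2DF vs. 2DC and -0.81 in 3DF vs. 2DF, whereas COL11A1 had -0.24 and -1.67. COL1A1 had -0.76 and -0.71, COL3A1 -1.24 and -1.32, and COL5A1 and COL5A2 had -0.26 and -0.21 at the first step and -0.53 and -0.49 at the second.

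**Figure D2:**
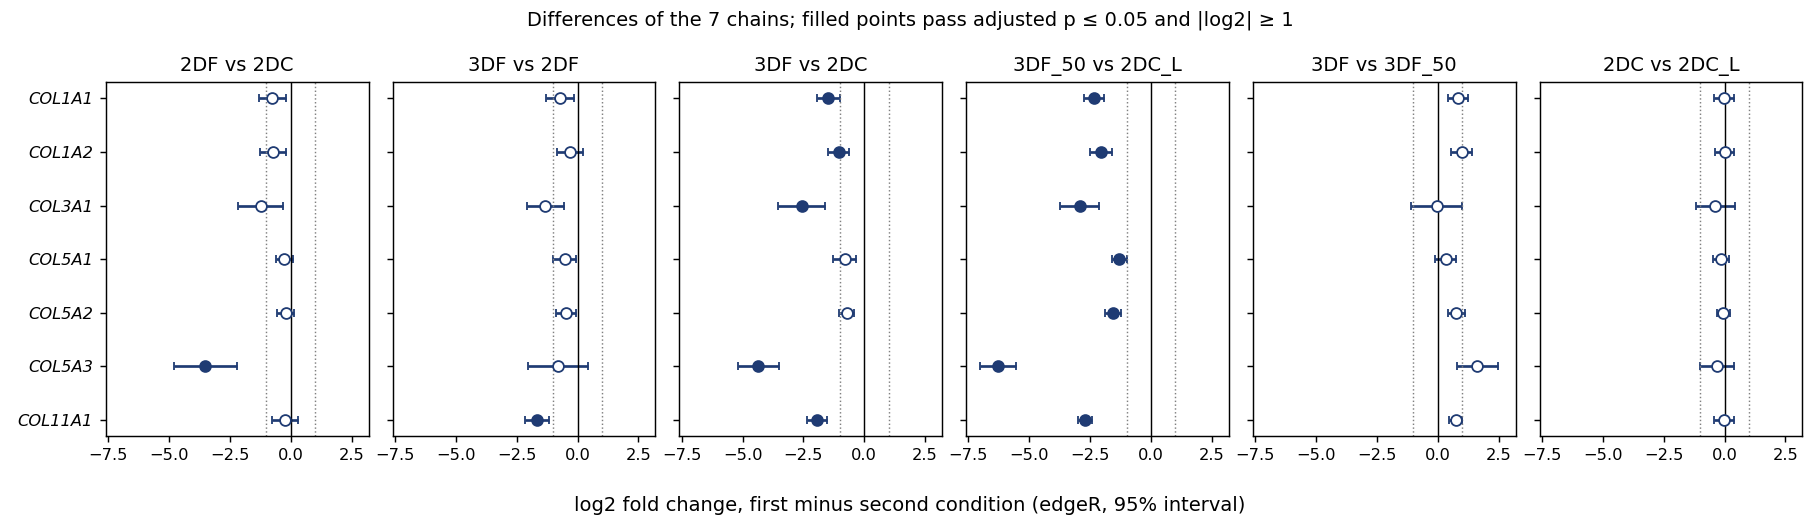
Log2 fold changes of the 7 genes (horizontal axis, first condition minus second; bars are 95% intervals from edgeR) in 6 comparisons of conditions; filled points are DEGs and dotted lines mark the fold limit. All 7 points are filled and left of 0 in 3DF_50 vs. 2DC_L, 5 are filled in 3DF vs. 2DC, COL5A3 alone is filled in 2DF vs. 2DC and COL11A1 alone in 3DF vs. 2DF.

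The comparison 3DF_50 vs. 2DC_L again set cells in a matrix against cells on a coated dish, in 6 other libraries, with the lower cell density and without digestion of the dish-grown cells. All 7 genes were DEGs and lower in 3DF_50, where 13.5% of the 13321 genes tested were DEGs and 8.47% were lower DEGs. COL5A3 fell 77.6-fold (log2 -6.28, SE 0.33, edgeR adjusted p = 1.04e-06) and COL3A1 fell 7.64-fold (log2 -2.93, SE 0.36, edgeR adjusted p = 0.000154). COL11A1 fell 6.55-fold (log2 -2.71, SE 0.13, edgeR adjusted p = 6.56e-07), COL1A1 fell 5.01-fold (log2 -2.33, SE 0.18, edgeR adjusted p = 1.02e-05) and COL1A2 fell 4.14-fold (log2 -2.05, SE 0.20, edgeR adjusted p = 3.46e-05). COL5A2 fell 2.94-fold (log2 -1.56, SE 0.14, edgeR adjusted p = 2.35e-05) and COL5A1 fell 2.47-fold (log2 -1.30, SE 0.14, edgeR adjusted p = 5.84e-05). The 7 calls held whichever of the 6 libraries was left out, and with the name prefix as a block. Apart from replicate 2 of 3DF_50, these libraries carry a prefix that is also found in 2DC or 3DF, so that they may not be independent of those in 3DF vs. 2DC.

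Each gene fell further in this second pair of conditions than in the first. The difference between the log2 fold changes, tested as an interaction over the 12 libraries, ran from 0.34 for COL3A1 to 1.92 for COL5A3. In edgeR 0 of the 7 passed the adjusted p, against 0.327% of the 14081 genes tested. COL5A2 came nearest (0.82, SE 0.18, edgeR adjusted p = 0.0892), and 5 of the 7 had an unadjusted p under 0.05, as did 13.2% of genes.

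Cell density was compared inside the matrix, in 3DF vs. 3DF_50. COL5A3 was 3.09-fold higher at 100000 than at 50000 cells per matrix (log2 1.63, SE 0.38, edgeR adjusted p = 0.0859), COL1A2 1.97-fold (log2 0.98, SE 0.19, edgeR adjusted p = 0.0636), COL1A1 1.76-fold (log2 0.81, SE 0.18, edgeR adjusted p = 0.0824) and COL5A2 1.70-fold (log2 0.77, SE 0.16, edgeR adjusted p = 0.0678). COL11A1 was 1.67-fold higher (log2 0.74, SE 0.12), and its edgeR adjusted p of 0.0345 passed, as it did for 0.452% of genes in this direction, while its fold change did not reach the limit. In edgeR 0 of the 7 were DEGs, against 0.452% of the 13285 genes tested, 5 had an unadjusted p under 0.05, against 20% of genes, and DESeq2 called 1, COL5A3 (log2 1.63, adjusted p = 0.00161). These 5 genes had non-overlapping libraries, higher in 3DF, as did 16.8% of genes. COL5A1 was at 0.34 (95% interval -0.095 to 0.77) and COL3A1 at -0.047 (-1.11 to 1.01), with overlapping libraries. Without 3DF replicate 1, COL5A3 became a DEG (1.79, edgeR adjusted p = 0.048). The adjusted p of COL11A1 was 0.0774 without 3DF replicate 3 and 0.131, 0.212 and 0.101 without 3DF_50 replicate 1, 2 and 3.

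The effect of the digestion medium was compared in 2DC vs. 2DC_L. The libraries of all 7 genes overlapped between these conditions, and the log2 fold changes lay between -0.38 for COL3A1 and -0.0014 for COL1A2. In edgeR 0 of the 7 were DEGs, with adjusted p from 0.92 to 0.999, 0 had an unadjusted p under 0.05 (5.73% of genes did), DESeq2 called 0, and 0.265% of the 13608 genes tested were DEGs. The 95% intervals spanned -0.43 to 0.40 for COL1A1, -0.41 to 0.40 for COL1A2, -0.46 to 0.19 for COL5A1, -0.32 to 0.21 for COL5A2 and -0.45 to 0.39 for COL11A1. They were wider for COL5A3 (-1.001 to 0.41) and for COL3A1 (-1.19 to 0.42).

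The row LOC100340124, which was chosen for naming after its values were seen, was lower in both comparisons of matrix with coated dish. It was at -0.62 (SE 0.13) in 3DF vs. 2DC with an edgeR adjusted p of 0.0138, and at -0.82 (SE 0.093) in 3DF_50 vs. 2DC_L with an edgeR adjusted p of 9.83e-05. In 2DF vs. 2DC it was at 0.0022 (95% interval -0.28 to 0.28). Its values were lower than those of COL5A1 in FPKM, by a ratio of 1.21 to 2.13 in single libraries.

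The proportions between chains differed among the conditions. Such a ratio is taken within a library and does not depend on its size. Type I collagen is usually assembled with more alpha-1(I) than alpha-2(I) chains, and COL1A1 exceeded COL1A2 in all 9 2D libraries, with mean ratios of 1.16 ± 0.081 in 2DC_L, 1.15 ± 0.053 in 2DC and 1.12 ± 0.068 in 2DF (SD, n = 3). In 3DF the order was inverted in all 3 libraries, with a ratio of 0.853 ± 0.068 and a range of 0.813 to 0.932, below every 2D library. In 3DF_50 the ratio was 0.969 ± 0.10 and its range of 0.903 to 1.09 overlapped with 2DF and 2DC_L.

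Type V message made up a larger part relative to type I in the matrices. COL5A1 was at 5.52% ± 0.385 of COL1A1 in 2DC and 5.97% ± 0.659 in 2DC_L, at 7.82% ± 0.729 in 2DF, at 8.68% ± 1.59 in 3DF and at 12.2% ± 0.71 in 3DF_50 (SD, n = 3). The 9 matrix libraries were all above the 6 coated ones, which reached 6.59%, and those of 3DF_50 were above all the others. COL5A2 was likewise at 9.52% of COL1A2 in 2DC and 9.79% in 2DC_L, and it was higher on top of the matrix (13.6%) as well as inside it (11.9% in 3DF and 13.8% in 3DF_50). The ratio of COL5A2 to COL5A1 ranged from 1.07 to 2.26 over the 15 libraries, and the log2 difference between 3DF and 2DC of 0.12 turned to -0.12 without 3DF replicate 1.

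COL11A1 and COL5A3 changed their standing against COL5A1 at separate points. COL11A1 was at 20.1% of COL5A1 in 2DC_L, 21.1% in 2DC and 21.4% in 2DF, and at 10.3% in 3DF and 7.43% in 3DF_50. The 6 3D libraries reached at most 13.9%, and the 9 2D libraries were at 15.9% or more. COL5A3 was at 2.65% of COL5A1 in 2DC_L and 2.49% in 2DC, and at 0.234% in 2DF, 0.216% in 3DF and 0.086% in 3DF_50. Its matrix libraries reached at most 0.45%, against 1.28% or more on coated dishes.

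**Figure D3:**
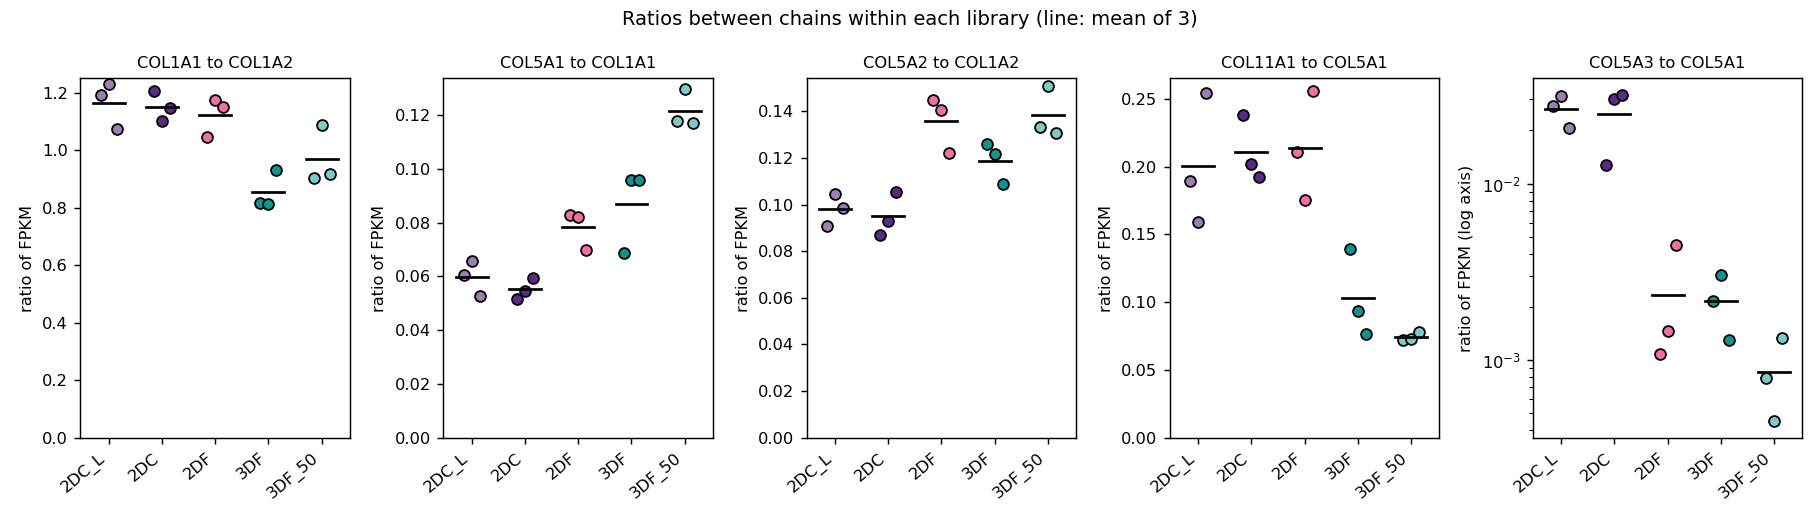
Ratio of the FPKM of chain pairs within each library (vertical axis; linear from 0 in the first 4 panels, logarithmic in the last) by condition (horizontal axis); points are libraries and lines are means of 3. COL1A1 to COL1A2 drops below 1 in all 3 libraries of 3DF, COL5A1 to COL1A1 climbs to a mean of 0.122 in 3DF_50, COL11A1 to COL5A1 drops between 2DF and 3DF, and COL5A3 to COL5A1 drops between the coated dishes and 2DF.

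The reads of the 7 genes took up a sizeable part of each library. Their share of all counts was 16.3% ± 1.11 in 2DC_L, 16.1% ± 2.20 in 2DC, 10.7% ± 2.08 in 2DF, 7.77% ± 0.678 in 3DF and 4.75% ± 0.486 in 3DF_50 (SD, n = 3). No 3D library exceeded 8.56% and no 2D library was under 9.02%. With libraries scaled to their total counts alone, the median over all genes in 3DF vs. 2DC was at log2 0.187 in place of 0.012, and COL1A2 at -0.87 was no longer a DEG, while no gene of the 7 changed direction in this comparison.

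**Figure D4:**
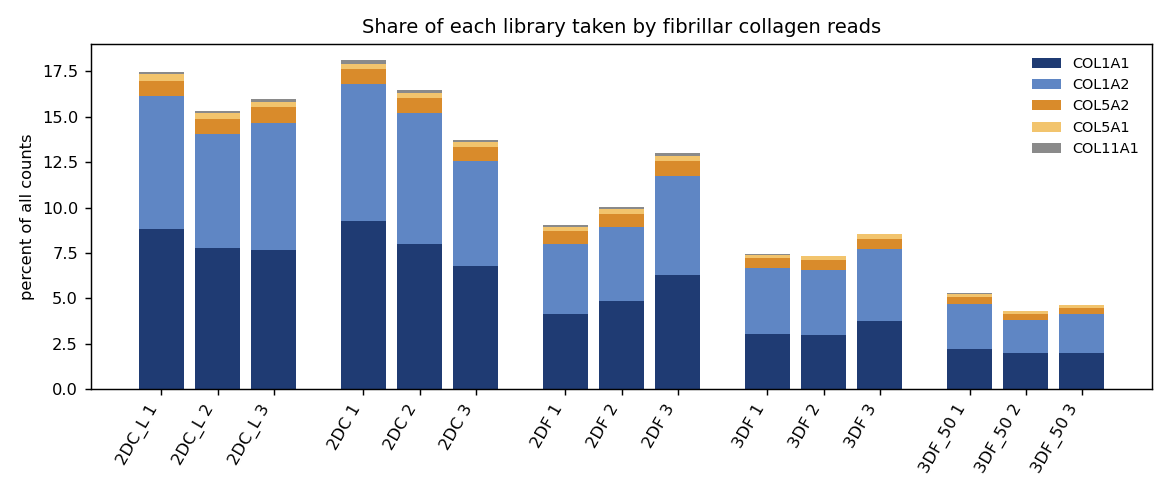
Percent of all counted reads (vertical axis) in the 15 libraries (horizontal axis, condition and replicate), stacked by gene for COL1A1, COL1A2, COL5A2, COL5A1 and COL11A1; COL3A1 and COL5A3 are at most 0.0223% and are not drawn. Totals run from 13.8% to 18.1% on coated dishes, from 9.02% to 13.0% in 2DF, from 7.35% to 8.56% in 3DF and from 4.32% to 5.27% in 3DF_50.

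The genes whose levels were most like those of each chain were found by Pearson's r of log2(FPKM + 1) over the 15 libraries, among 9683 genes with a symbol and a mean of at least 1 FPKM. These libraries share conditions and scaling, so r is given as a description. For COL1A1 the highest were ADAMTS2 (0.993), PYCR1 (0.989) and SPARC (0.984), and for COL1A2 ADAMTS2 (0.990), SRPX (0.990) and FKBP9 (0.980). For COL5A1 they were CDK5RAP3 (0.976), P3H1 (0.971) and KDELR1 (0.971), and for COL5A2 LRRC59 (0.991), SPARC (0.985) and FKBP9 (0.983). For COL5A3 they were GTSE1 (0.989), TNC (0.984) and ANXA2 (0.980), for COL11A1 ST5 (0.993), SPARC (0.981) and FSTL1 (0.979), and for COL3A1 XXYLT1 (0.969), ITGA2B (0.952) and CUL7 (0.945). Among the 7 chains themselves r lay between 0.831 (COL5A3 and COL11A1) and 0.984 (COL1A1 and COL1A2). After the mean of each condition was subtracted it was 0.904 for COL1A2 with COL5A2 and 0.894 for COL1A1 with COL1A2, but 0.230 for COL5A1 with COL5A2 and -0.16 for COL3A1 with COL5A3.

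The remaining fibril-forming chains, COL2A1, COL11A2, COL24A1 and COL27A1, were all tested in 3DF vs. 2DC, with log2 fold changes from -0.48 to 0.48 and edgeR adjusted p from 0.0816 to 0.977. Their median was -0.063, against -1.49 for the 7 genes and 0.012 for all genes tested. In 3DF_50 vs. 2DC_L, 1 of the 4 was a DEG, COL2A1, the collagen of cartilage (log2 -1.62, edgeR adjusted p = 0.00228). There 13.5% of all genes were DEGs and 8.47% were lower DEGs. Of the fibril-associated collagens, which sit on the surface of fibrils, 2 of 5 tested were lower DEGs in 3DF vs. 2DC (4.32% of all genes), COL14A1 (log2 -1.57, edgeR adjusted p = 0.000485) and COL9A3 (log2 -1.79, edgeR adjusted p = 0.0158), with a median of -1.04. COL14A1 fell in 2DF vs. 2DC too (log2 -1.17, edgeR adjusted p = 0.00271), and it was higher in 3DF than in 3DF_50 (log2 1.18, edgeR adjusted p = 0.0393).

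Of 18 enzymes, chaperones and their partners tested in 3DF vs. 2DC that modify and fold procollagen in the endoplasmic reticulum, 6 were DEGs, all of them lower (4.32% of all genes were lower DEGs), and 13 were lower by adjusted p alone (8.38% of all genes). The list had a median log2 fold change of -0.93, and 5 genes did not pass, among them COLGALT2 (0.14) and TMEM38B (0.028). The DEGs were all 3 alpha subunits of prolyl 4-hydroxylase, which make the hydroxyproline that keeps the triple helix stable (P4HA1 -1.20, P4HA2 -1.44 and P4HA3 -4.65), the lysine-modification partners P3H4 (-1.48) and FKBP10 (-1.11), and the zinc transporter SLC39A13 (-1.15), with edgeR adjusted p from 0.000273 to 0.00401. P4HA3 was low in both conditions, with means of 0.0746 FPKM in 3DF and 1.89 FPKM in 2DC. It was not tested in 3DF vs. 3DF_50, so it passed the filter through 2D libraries only. The filter thus partly set the counts of this list that include P4HA3, here and in the comparisons of 3D with 2D below. In 2DF vs. 2DC the list held 1 lower DEG, P4HA3 (-1.71, edgeR adjusted p = 0.0254), and 1 higher, the collagen glycosyltransferase COLGALT2 (1.25, edgeR adjusted p = 0.0015). There 2.93% of all genes were lower and 2.04% higher DEGs. In 3DF vs. 2DF the list held 3 lower DEGs, P4HA2 (-1.17), P4HA3 (-2.91) and COLGALT2 (-1.09), where 1.69% of all genes were lower DEGs. In 3DF_50 vs. 2DC_L, 12 of 17 tested were lower DEGs (8.47% of all genes), among them PPIB (-1.15), which isomerizes prolines of the helix, and PLOD2 (-1.34), a lysyl hydroxylase.

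Secretion and processing of procollagen did not move as one group. In 3DF vs. 2DC, 2 of 11 tested were higher DEGs, against 3.24% of all genes, and 1 was a lower DEG, against 4.32%. TLL1, a tolloid-like proteinase that trims the C-terminal propeptide, was at 6.50 FPKM in 3DF and 0.743 FPKM in 2DC (log2 3.11, edgeR adjusted p = 0.000302), and it rose in 3DF vs. 2DF as well (log2 2.95, edgeR adjusted p = 0.000482). ADAMTS3 rose (log2 1.18, edgeR adjusted p = 0.000802) and ADAMTS14 fell (log2 -1.26, edgeR adjusted p = 0.00878), and both encode proteinases that trim the N-terminal propeptide. In 3DF_50 vs. 2DC_L, TLL1 (3.28) and ADAMTS3 (1.02) were again higher (5.05% of all genes were higher DEGs), and 4 genes were lower (8.47%), namely ADAMTS2 (-1.62), ADAMTS14 (-1.97), TLL2 (-1.04) and PCOLCE (-1.56), an enhancer of C-terminal trimming.

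Among the lysyl oxidases, which cross-link the finished fibrils, 3 of 5 were lower DEGs in 3DF vs. 2DC, against 4.32% of all genes, with a list median of -1.49. LOX was at 125 FPKM in 3DF and 503 FPKM in 2DC (log2 -2.02, edgeR adjusted p = 0.000165), LOXL2 at 50.4 and 141 FPKM (log2 -1.49, edgeR adjusted p = 0.00249) and LOXL4 at 2.17 and 28.8 FPKM (log2 -3.74, edgeR adjusted p = 0.00083). In 3DF vs. 2DF, 4 of the 5 fell, against 1.69% of all genes, LOX (-1.66), LOXL1 (-1.88), LOXL2 (-1.19) and LOXL4 (-2.21), with edgeR adjusted p from 0.000889 to 0.00391. LOXL1 rose in 2DF vs. 2DC (log2 1.31, edgeR adjusted p = 0.000438) while LOXL4 fell (log2 -1.50, edgeR adjusted p = 0.0427).

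Of 14 proteoglycans and glycoproteins that bind fibrils, 5 were DEGs in 3DF vs. 2DC, all of them lower, as were 4.32% of all genes. These were the small proteoglycans BGN (-1.50), FMOD (-1.43) and ASPN (-3.59), the collagen-binding protein SPARC (-1.19) and fibronectin, FN1 (-1.70), with edgeR adjusted p from 0.000161 to 0.0165. The list had a median of -0.45, with 9 fold changes below 0 and 5 above. Those above were LUM (0.39), KERA (0.19), DCN (0.18), OGN (0.039) and THBS2 (0.73), none of them a DEG. Of these, THBS2 passed by adjusted p alone (edgeR adjusted p = 0.0111). BGN (-1.84), FMOD (-1.90), ASPN (-3.49) and FN1 (-1.21) were lower DEGs in 3DF vs. 2DF too, against 1.69% of all genes. The only DEG of this list in 2DF vs. 2DC was THBS2, a matrix glycoprotein, which was higher (log2 1.38, edgeR adjusted p = 0.000247), as were 2.04% of all genes.

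Genes of collagen breakdown changed in both directions. In 3DF vs. 2DC the collagenase MMP1 (log2 3.84, edgeR adjusted p = 0.0113) and the membrane-bound collagenase MMP14 (log2 1.21, edgeR adjusted p = 0.0131) rose. The protease FAP (-1.51) and the inhibitors TIMP1 (-2.11) and TIMP3 (-1.24) fell, which made 5 DEGs of 9 tested. MMP1 was low, with means of 0.973 FPKM in 3DF and 0.0697 FPKM in 2DC. It was not tested in 2DF vs. 2DC, so it passed the filter here through 3DF only. The filter thus partly set the count of 5, which is not compared with the share of all genes. The rise of MMP1 in 3DF_50 vs. 2DC_L (log2 1.87, edgeR adjusted p = 0.162) did not pass. In 2DF vs. 2DC the 3 DEGs of 8 tested were all higher (2.04% of all genes were higher DEGs), the gelatinase MMP2 (1.45), its activator MMP14 (1.35) and TIMP2 (1.02). In 3DF vs. 2DF, CTSK (-1.08), FAP (-1.31) and TIMP1 (-1.24) were lower, against 1.69% of all genes.

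Of the 8 collagen receptors tested in 3DF vs. 2DC, 3 were lower by adjusted p in edgeR, against 8.38% of all genes, with fold changes under the limit. In 3DF_50 vs. 2DC_L, 4 of 8 were lower DEGs, against 8.47% of all genes, namely the integrin subunits ITGA1 (-1.32), ITGA2 (-1.01) and ITGA11 (-1.04) and the endocytic collagen receptor MRC2 (-1.14), with edgeR adjusted p from 3.18e-05 to 0.00124. ITGA2 was higher in 3DF than in 3DF_50 (log2 1.07, edgeR adjusted p = 0.0401). ITGA10 was higher in 2DF vs. 2DC (log2 1.00, edgeR adjusted p = 0.00624), and ITGA11, an integrin subunit that binds fibrillar collagen, was lower in 3DF vs. 2DF (log2 -1.33, edgeR adjusted p = 0.00343). CTGF, a target of TGF-beta signaling, a pathway that drives collagen transcription in stromal cells, was at 9.32 FPKM in 3DF and 185 FPKM in 2DC (log2 -4.32, edgeR adjusted p = 0.000389). It also fell in 3DF vs. 2DF (log2 -3.82, edgeR adjusted p = 0.000407).

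**Figure D5:**
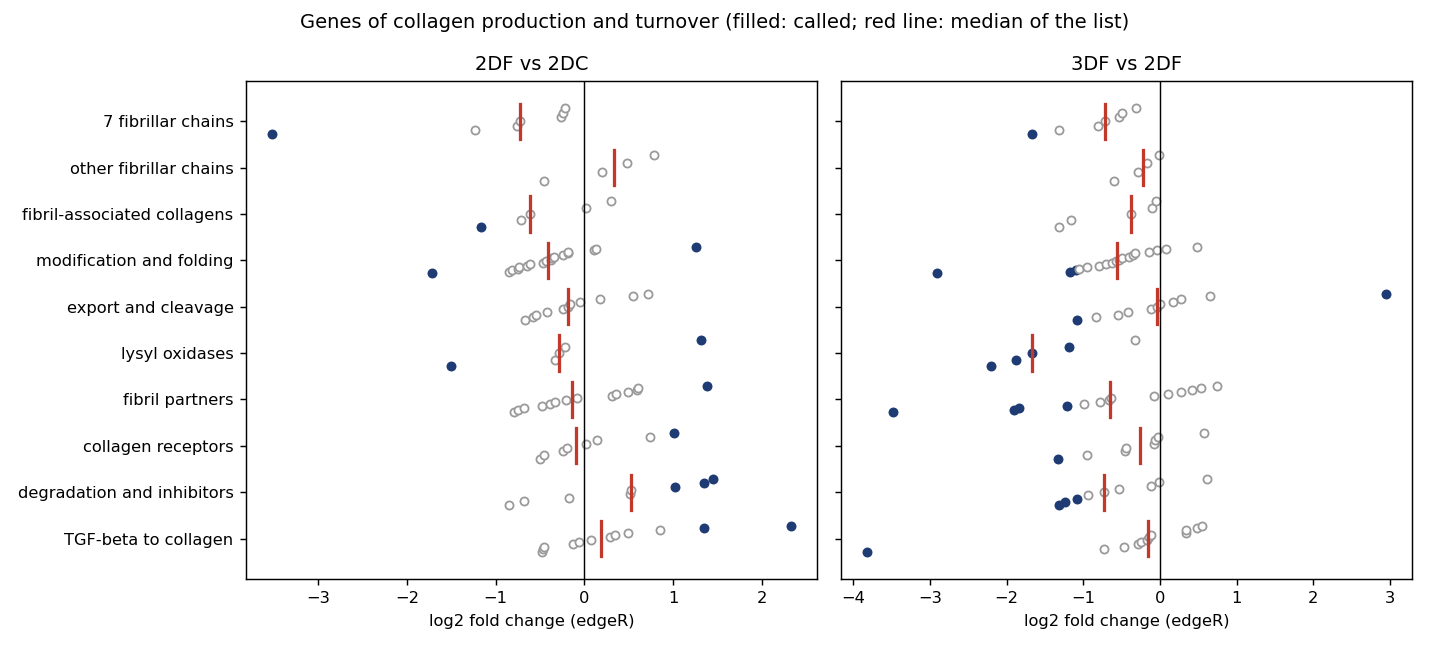
Log2 fold changes from edgeR (horizontal axis) of the 7 chains and of 9 lists of genes of collagen production and turnover (vertical axis) in 2DF vs. 2DC and 3DF vs. 2DF; points are genes, filled points are DEGs and red lines are list medians. The lysyl oxidases have 4 filled points left of 0 in 3DF vs. 2DF, and the degradation list has 3 filled points right of 0 in 2DF vs. 2DC and 3 left of 0 in 3DF vs. 2DF.

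Markers of other cell types and states were summed in the same libraries, and their sums did not all follow the order of the collagen genes. Epithelial markers (9 of 10 in the table) summed to 0.449 to 1.32 FPKM in 2DC, 0.386 to 1.21 in 2DC_L, 0.995 to 6.84 in 2DF, 8.25 to 13.5 in 3DF and 0.133 to 6.55 in 3DF_50. In 3DF vs. 2DC 6 were tested and 5 were higher DEGs. Of these, KRT3, KRT12 and CDH1 passed the filter only through 3DF, with means of 0.0555, 0 and 0.0184 FPKM in 2DC. The filter thus partly set this count, and it is not compared with the share of all genes. In 2DF vs. 2DC 0 of 3 tested were DEGs, and in 3DF_50 vs. 2DC_L 0 of 2. KRT12, which defines corneal epithelium, was at 0 in all libraries of 2DC and 2DC_L, EPCAM in those of 2DC_L and 2DF, and KRT15 in those of 2DF and 3DF_50. Myofibroblast markers (4 of 5 in the table, none at 0 in a whole condition) summed to 5.18 to 7.64 FPKM in 2DC, 3.40 to 10.7 in 2DC_L, 1.68 to 5.28 in 2DF, 0.747 to 1.10 in 3DF and 0.492 to 0.921 in 3DF_50. Proliferation markers (6 of 6) summed to 22.4 to 87.6 FPKM in 2DC, 43.0 to 56.7 in 2DC_L, 20.8 to 24.7 in 2DF, 21.4 to 26.5 in 3DF and 26.7 to 30.7 in 3DF_50, with MKI67 at 0 in 3DF_50. By condition means most of each sum was PCNA, so the sums hardly show the other genes. Lower DEGs were 4 of 6 tested in 3DF vs. 2DC, MKI67 (-8.74), CDK1 (-7.51), TOP2A (-3.86) and BUB1 (-2.78). CCNB1 (-3.61) and PCNA (-0.75) did not pass there. In 2DF vs. 2DC 4 of 5 tested were lower DEGs, in 3DF_50 vs. 2DC_L 5 of 6, and in 3DF vs. 2DF 0 of 2. These counts too are not compared with the share of all genes. Corneal endothelial markers (4 of 4, ZP4 at 0 in every condition) summed to 228 to 355 FPKM in 2DC, 313 to 381 in 2DC_L, 333 to 417 in 2DF, 95 to 159 in 3DF and 67.7 to 81.8 in 3DF_50, nearly all of it COL8A2. Vascular endothelial markers (4 of 4, PECAM1 at 0 in 3DF_50) summed to 30.7 to 60.8 FPKM in 2DC, 37.3 to 45.9 in 2DC_L, 46.3 to 62.5 in 2DF, 112 to 116 in 3DF and 46.4 to 72.4 in 3DF_50, nearly all of it KDR. Leukocyte markers (5 of 6, PTPRC at 0 in 2DF) summed to 2.01 to 7.93 FPKM over the 15 libraries. The part of these cells and states in the levels of the collagen genes was not tested.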

How the data were processed

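Libraries of rabbit keratocytes were grouped by the condition in their labels. The authors aligned reads to oryCun2 with HISAT2 2.0.5 and counted them per gene with featureCounts 1.5.0-p3. The deposited counts are whole reads and are not normalized. The FPKM values deposited by the authors are these counts per length of gene and per size of library. The sizes were 0.921 to 0.995 times the summed counts on coated dishes and 0.985 to 1.08 times in 2DF. They were 1.04 to 1.08 times in 3DF and 1.19 to 1.24 times in 3DF_50. Levels in FPKM thus carry a scaling that differs by condition, which shares of counts do not. Gene lengths and positions were taken from the deposited tables.

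Counts were tested in edgeR 4.0.16 (R 4.3.3) with TMM, filterByExpr at a minimum count of 10 and only the conditions compared in the fit, two-sided, with Benjamini–Hochberg adjustment over all genes tested. The pipeline was tested on simulated data. Alternatives were DESeq2 1.42.0, limma 3.58.1 on log2 FPKM with 1 or 0.1 added, other scalings, filters and thresholds, blocks, and leaving out each library. Ratios, shares and figures were computed in Python 3.11.15.

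The 7 genes, the lists and their markers were chosen with earlier results of these data known. Named genes are the 7 in every comparison, DEGs and some other members of the lists, and for each of the 7 the 3 most correlated genes. Replicates are separate experiments by the study's methods, and counts of libraries of 1 condition were further apart than sampling noise (chi-square 17.2 to 90.0 per gene). Listed symbols that matched no row, such as SERPINH1 and P4HB, and the sequencing reads are not analysed here, and some results of the lists are not reported here.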

Additional observations from a re-analysis of the deposited data

How the results depend on the processing

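Of 756 values of the 7 genes under alternatives, 711 kept their direction and side of the threshold. The 5 DEGs in 3DF vs. 2DC were 3 with limma on log2(FPKM + 1) and 4 to 6 when single libraries were left out, COL1A2 being lost with library size only, the library prefix as a block, and both limma fits. In 2DF vs. 2DC the 1 DEG became 2, with COL3A1 added, under DESeq2, no filter and the replicate block, 0 with the prefix block (COL5A3 -3.89, edgeR adjusted p = 0.315), and 1 to 2 with a library left out. In 3DF vs. 2DF it became 2, again with COL3A1, under DESeq2, DESeq2 size factors, library size only, library size without the 10 largest genes, no filter and a mean of 1 CPM, 0 with the prefix block (COL11A1 -1.33, edgeR adjusted p = 0.288), and stayed 1 with a library left out. In 3DF vs. 3DF_50 it was 1 under DESeq2, no filter and no fold limit, and 0 to 1 with a library left out. The 7 DEGs of 3DF_50 vs. 2DC_L were 6 with library size only (COL5A1 at -0.95) and 7 with a library left out.

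The replicate numbers were not taken as pairs in the main tests, and the replicate block was an alternative. Over all comparisons, same-numbered libraries correlated at r from -0.115 to 0.322. In 2DC vs. 2DC_L (r = 0.322, 0.064 and 0.105) and 3DF_50 vs. 2DC_L (0.14, 0.075 and 0.26) each library of the first condition correlated best with its own number. The libraries of these comparisons may therefore be paired. Same-numbered libraries there also share a name prefix for replicates 1 and 2 in the first (r = 0.32 and 0.064) and replicate 3 in the second (r = 0.26), and what a prefix marks is not stated. With the replicate block the count of DEGs was 2 in 2DF vs. 2DC in place of 1 and was the same in the other pairs of conditions. COL3A1 in 3DF vs. 3DF_50 turned to 0.075 with the replicate block, 0.49 with the prefix block, 0.0027 and 0.081 with limma and the larger and smaller pseudocount, and lay between -0.42 and 0.61 with a library left out. In 2DC vs. 2DC_L the prefix block gave 0.0039 for COL1A1, 0.032 for COL1A2 and 0.0025 for COL11A1. With a library left out, COL1A1 ranged from -0.15 to 0.13, COL1A2 from -0.10 to 0.13, COL5A2 from -0.091 to 0.016 and COL11A1 from -0.22 to 0.12 there, COL5A3 in 3DF vs. 2DF from -1.22 to 0.28, and the log2 ratio of COL5A2 to COL5A1 in 3DF against 2DC from -0.12 to 0.32. The cause of these changes was not tested.

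With library size only, the median over all genes moved to log2 0.11 in 2DF vs. 2DC, -0.15 in 3DF vs. 3DF_50 and 0.36 in 3DF_50 vs. 2DC_L. With it, 649 genes were higher and 475 lower DEGs in 3DF vs. 2DC in place of 437 and 583, 1357 and 747 in 3DF_50 vs. 2DC_L in place of 673 and 1128, and 24 and 29 in 3DF vs. 3DF_50 in place of 42 and 18. Without the 10 largest genes the last 2 were 864 and 957, and 32 and 22. With 3 libraries a condition, small differences and the lowest counts, those of COL3A1, are measured least precisely.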
